A study of Mus musculus with 16 samples.

Results

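The 10 genes described here are known for their expression in monocytes and macrophages: Ly6c2, Chil3, Fn1, Ccr2, Csf1r, Lyz2, Cx3cr1, C1qa, C1qb and Il1b. They were picked by symbol from the platform annotation, and each was represented by 1 probe set, so the 10 members are 10 of 19572 probe sets with a gene symbol. The values come from Clariom S mouse arrays of olfactory mucosa, which was dissociated and sorted by fluorescence from mice carrying the S100a5-tauGFP reporter. S100a5 encodes a calcium-binding protein of olfactory sensory neurons (OSNs), so the reporter marks neurons and no immune cell type was sorted for. In all, 24 mice of both sexes, 7 to 12 weeks old, were kept singly in air chambers for 40 h at a flow of 3.1 L/min. From 26 h onward they received a 10 s pulse every 20 min, either filtered air (vehicle) or citrus accord at 100%. Cells of 3 mice were pooled for each array. The 4 groups, with 4 arrays each, were vehicle GFP-negative, vehicle GFP-positive, citrus GFP-negative and citrus GFP-positive cells, and every group carried the reporter.

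Monocytes are made in the bone marrow under the control of the transcription factor PU.1 and of the cytokine receptor encoded by Csf1r. Classical monocytes carry Ly6C at their surface and leave the marrow through the chemokine receptor CCR2. Nonclassical monocytes carry the fractalkine receptor CX3CR1 and patrol vessels, whereas tissue macrophages engulf dying cells and make the complement protein C1q. In the olfactory epithelium, where neurons die and are replaced throughout life, macrophages are known to clear dead neurons. Several of the 10 genes are not private to this lineage. Lyz2, Chil3 and Il1b are also expressed by neutrophils or their precursors, Cx3cr1 and Csf1r by microglia, and Fn1 by fibroblasts and endothelium.

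RefSeq promoter windows on build GRCm38.p6, cut to the 250 bases before the annotated start, were matched for 7 of the 10 members: Ly6c2, Chil3, Ccr2, Lyz2, Cx3cr1, C1qb and Il1b. They are shown as a description of sequence, and whether PU.1 has a part in the differences between the sorted fractions was not tested. Where a gene had several windows, as Ly6c2 did with 2, the first listed was used. The letters GGAAGT, a core bound by PU.1 and other ETS factors, were found on either strand in 5 of 7 windows (Ly6c2, Chil3, Lyz2, C1qb and Il1b), against 19.7% of all 32851 windows of the table. From these, 4 are printed, 1 for each of the roles of surface marker, lysozyme, complement and cytokine. Each is written 5′ to 3′ along the gene's own strand and ends at the base before the start, with capitals at GGAAGT or its complement ACTTCC. The Ly6c2 window is chr15:75111972-75112221, the Lyz2 window chr10:117282273-117282522, the C1qb window chr4:136886201-136886450 and the Il1b window chr2:129371140-129371389, all on the minus strand.
Ly6c2: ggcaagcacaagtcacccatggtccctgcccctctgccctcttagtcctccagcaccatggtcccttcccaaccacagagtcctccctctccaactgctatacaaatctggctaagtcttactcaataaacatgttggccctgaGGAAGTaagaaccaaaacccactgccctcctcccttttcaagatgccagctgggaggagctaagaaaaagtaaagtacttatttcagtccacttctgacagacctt
Lyz2: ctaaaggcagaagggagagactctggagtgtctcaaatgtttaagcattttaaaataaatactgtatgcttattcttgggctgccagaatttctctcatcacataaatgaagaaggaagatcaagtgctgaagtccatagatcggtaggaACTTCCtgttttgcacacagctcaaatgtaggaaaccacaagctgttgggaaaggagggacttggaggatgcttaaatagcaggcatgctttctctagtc
C1qb: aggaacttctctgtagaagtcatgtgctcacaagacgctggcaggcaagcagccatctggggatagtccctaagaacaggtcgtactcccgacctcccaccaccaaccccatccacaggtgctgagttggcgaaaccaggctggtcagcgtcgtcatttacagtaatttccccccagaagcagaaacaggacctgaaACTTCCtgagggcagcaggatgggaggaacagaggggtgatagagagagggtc
Il1b: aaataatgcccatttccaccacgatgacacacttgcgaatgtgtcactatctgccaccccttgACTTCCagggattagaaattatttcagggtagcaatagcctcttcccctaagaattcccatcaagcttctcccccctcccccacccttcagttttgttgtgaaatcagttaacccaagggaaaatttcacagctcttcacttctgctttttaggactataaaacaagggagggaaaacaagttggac
The capitals end 101 bases before the start in Ly6c2, 95 in Lyz2, 48 in C1qb and 182 in Il1b. The longer form GAGGAAGT, which contains GGAAGT, occurred in 1 of 7 windows (Ly6c2) and in 2.44% of all windows. The letters TTNNGNAA, where N is any base, match paired C/EBP sites and occurred in 5 of 7 windows (Ly6c2, Chil3, Ccr2, Lyz2 and Il1b), against 36.8% of all windows. TATAAA occurred in 1 of 7 (Il1b) and in 12.4% of all windows. A match describes letters and shows no binding, and these arrays measured none.

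Arrays within a group correlated at 0.985 to 0.992 over all tested probe sets and arrays of different gates at 0.934 to 0.965. S100a5, the gene whose reporter defined the gate, was higher in GFP-positive cells by 1.91 ± 0.13 (log2, standard error, adjusted p = 8.4e-09) in vehicle. Markers of mature OSNs were bright in both gates, with an array mean of 16.1 to 16.6 over 15 genes, so neurons contributed RNA to the GFP-negative fraction too. Negative-control probes had a 95th percentile between 8.75 and 9.71 on the log2 scale, depending on the array, and a probe set below that level on its array is called not above background here. Since probe sets differ in brightness, levels are compared between arrays and not between genes.

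All 10 genes were lower in GFP-positive than in GFP-negative cells, in vehicle and again in citrus. Of all tested probe sets, 9.97% were called lower in vehicle and 10.8% in citrus (adjusted p under 0.05), while 9.05% and 7.44% were called higher. The median gate difference, GFP-positive minus GFP-negative, of the 10 members was −4.32 in vehicle and −5.73 in citrus on the log2 scale, beside 0.11 and 0.13 over all tested probe sets. In vehicle every GFP-positive array lay below every GFP-negative array for 8 of 10 members, against 9.96% of probe sets, and in citrus for 10 of 10, against 11%. The split of the called probe sets depends on the scaling of the arrays: in vehicle 1771 were higher and 1952 lower as deposited, 7080 and 1555 after median centring, and 570 and 2888 after centring on the markers of mature OSNs. These centrings moved the median of all differences in vehicle from 0.11 to 0.39 and −0.15, and left all 10 members below 0. Taken pool by pool, the difference was below 0 in 8 of 8 pools for each of the 10 genes. Apart from Lyz2 on 2 arrays, no GFP-positive value of the 10 genes was above background, so the sizes of these differences rest on values at or under the background level and do not rank the genes against each other. In such bulk samples, fewer cells of a type and less RNA per cell cannot be told apart.

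**Figure D1:**
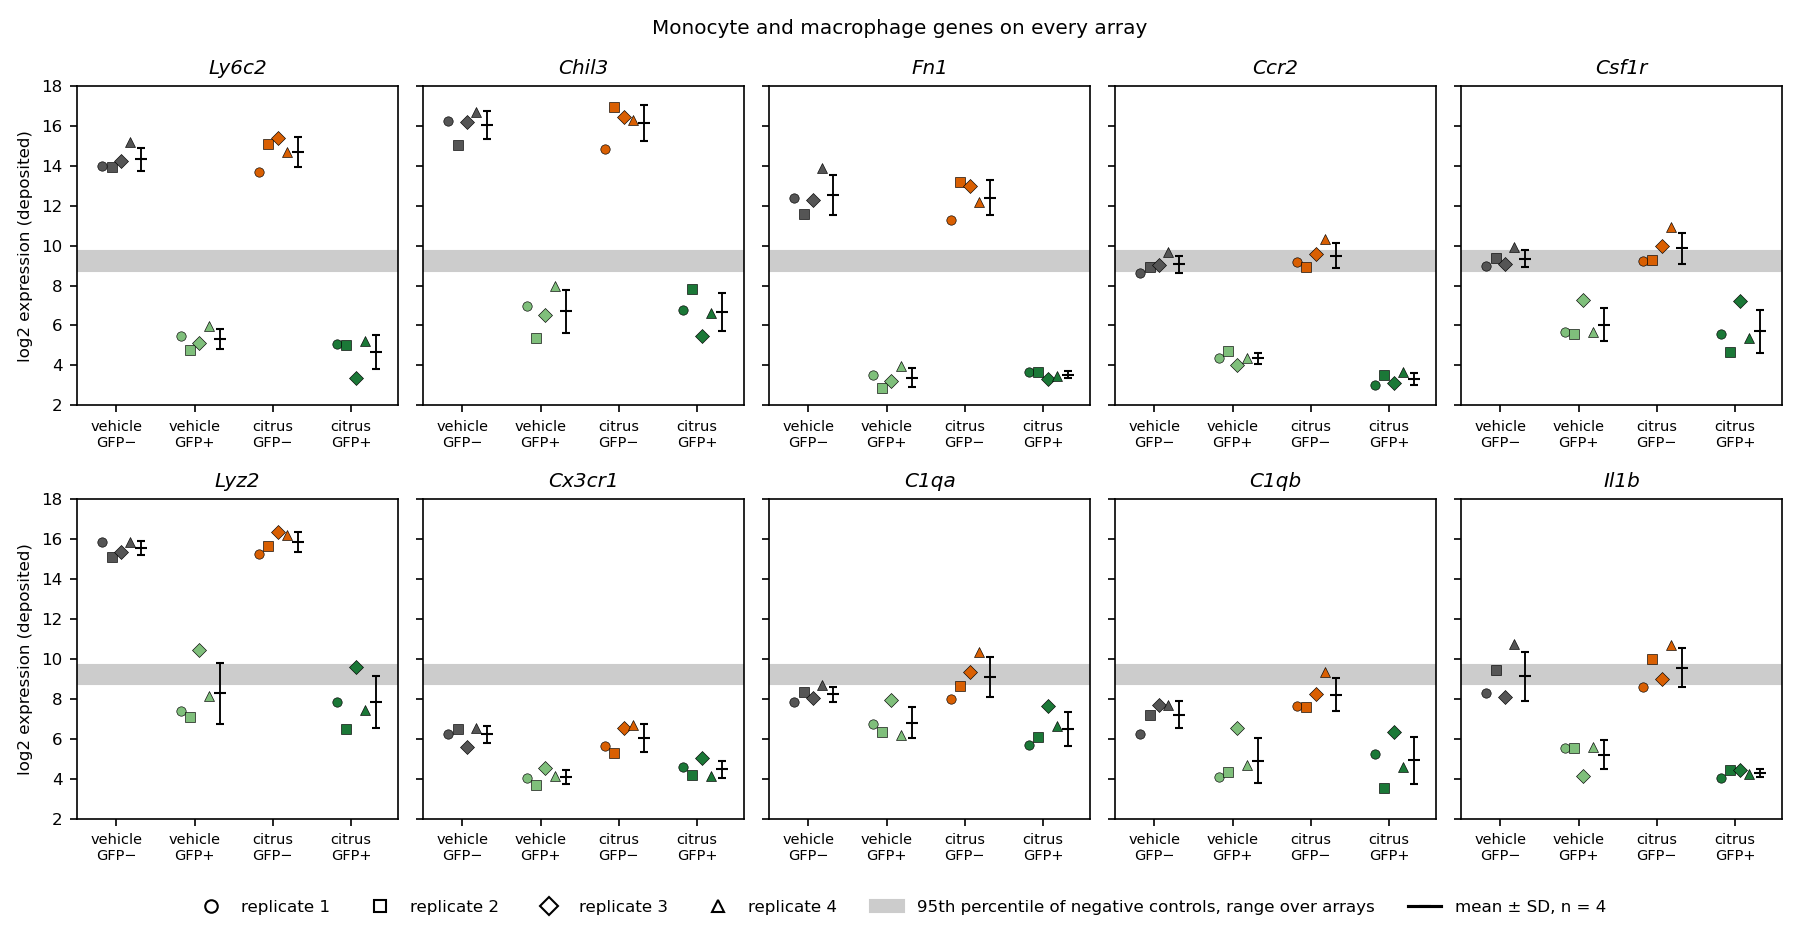
Deposited log2 expression of the 10 genes on each of the 16 arrays, by group, with the replicate number as the marker shape and the mean ± SD (n = 4) beside each group. The grey band spans the 95th percentile of negative-control probes over the arrays, from 8.75 to 9.71, and only Lyz2 has GFP-positive arrays (both numbered 3) above their own array's level.

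Ly6c2 (probe set TC1500001730.mm.2), which encodes a form of the Ly6C antigen that marks classical monocytes, was at 13.997, 13.94, 14.24 and 15.17 on the vehicle GFP-negative arrays (replicates 1 to 4, log2). The matching GFP-positive arrays had 5.46, 4.77, 5.12 and 5.96. In citrus the GFP-negative arrays had 13.67, 15.11, 15.39 and 14.69, and the GFP-positive arrays 5.05, 5.0, 3.38 and 5.24. The gates were far apart in both stimuli, and no GFP-positive array was above background. The difference was −9.01 ± 0.42 in vehicle (adjusted p = 1.1e-10) and −10.05 ± 0.42 in citrus (adjusted p = 3.3e-11). Because the dim side has only an upper bound, Ly6c2 was at least 31.8-fold lower in GFP-positive cells in vehicle and at least 53.8-fold lower in citrus. These bounds set the bright group's mean against the background level of the dim group's arrays, on the deposited scale.

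Chil3 (probe set TC0300002684.mm.2) encodes a secreted chitinase-like lectin, also called Ym1, of monocytes, alternatively activated macrophages and neutrophil precursors. On the GFP-negative arrays it read 16.26, 15.03, 16.21 and 16.68 in vehicle and 14.83, 16.97, 16.45 and 16.31 in citrus. On the GFP-positive arrays it read 6.97, 5.38, 6.55 and 7.97 in vehicle and 6.79, 7.82, 5.49 and 6.63 in citrus. All GFP-positive values were below background, and within each stimulus the lowest GFP-negative array stood about 7 log2 units above the highest GFP-positive one. Chil3 differed by −9.33 ± 0.56 in vehicle (adjusted p = 1.8e-09) and −9.45 ± 0.56 in citrus (adjusted p = 1.3e-09), or at least 104-fold and at least 144-fold lower.

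Fn1 (probe set TC0100002544.mm.2) encodes fibronectin, a matrix glycoprotein that monocytes and some macrophages also secrete. GFP-negative arrays had 12.40, 11.57, 12.29 and 13.91 in vehicle and 11.26, 13.21, 12.97 and 12.17 in citrus. GFP-positive arrays had 3.51, 2.88, 3.20 and 3.98 in vehicle and 3.67, 3.64, 3.29 and 3.48 in citrus, all under the median of the negative controls (4.84 to 5.37). Fn1 differed by −9.15 ± 0.43 in vehicle (adjusted p = 1.2e-10) and −8.88 ± 0.43 in citrus (adjusted p = 1.5e-10), or at least 9.16-fold and 10.9-fold lower. Fibroblasts and endothelial cells also make fibronectin. Of the stromal markers 0 of 6 passed the test in either direction in vehicle (median difference 0.00), and of the endothelial markers 0 of 6 (median −0.08). Across the 8 GFP-negative arrays the stromal list averaged 4.20 to 5.11, with 0 of its 6 genes above background on any vehicle array and 1 on any citrus array, and the endothelial list 3.42 to 4.06, with 0 of 6 in both. In citrus the counts were again 0 of 6 and 0 of 6, with Dcn, a stromal gene, at −1.50 ± 0.87 (adjusted p = 0.26) and Pecam1, an endothelial gene, at −0.84 ± 0.29 (adjusted p = 0.054). The Fn1 probe set was above background on 8 of 8 GFP-negative arrays, and the part of stromal or endothelial cells in its signal was not tested.

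Ccr2 (probe set TC0900001674.mm.2) encodes the receptor for CCL2 and related chemokines, through which classical monocytes leave the marrow. Its GFP-negative values were 8.65, 8.93, 9.04 and 9.66 in vehicle and 9.16, 8.91, 9.57 and 10.35 in citrus. Its GFP-positive values were 4.37, 4.70, 4.03 and 4.35 in vehicle and 3.03, 3.51, 3.12 and 3.66 in citrus. The signal on GFP-negative arrays was near the background level and exceeded it on 1 of 4 arrays in vehicle and 3 of 4 in citrus. For Ccr2 the gate difference was −4.71 ± 0.28 in vehicle (adjusted p = 1.6e-09) and −6.16 ± 0.28 in citrus (adjusted p = 7.0e-11). Only in citrus could a bound be given, at least 1.45-fold lower.

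Csf1r (probe set TC1800000625.mm.2) encodes the receptor for CSF1 and IL-34, on which monocytes and macrophages depend for survival. In GFP-negative cells it measured 8.98, 9.37, 9.10 and 9.95 in vehicle and 9.23, 9.29, 10.00 and 10.93 in citrus. In GFP-positive cells it measured 5.68, 5.58, 7.27 and 5.65 in vehicle and 5.57, 4.65, 7.22 and 5.39 in citrus. Replicate 3 was the highest of the GFP-positive arrays in both stimuli, and all 8 GFP-positive arrays were below background. Csf1r was lower in GFP-positive cells, at −3.30 ± 0.49 in vehicle (adjusted p = 9.0e-05) and −4.15 ± 0.49 in citrus (adjusted p = 5.8e-06), where the bound was at least 1.86-fold lower. GFP-negative arrays exceeded background in 2 of 4 cases in vehicle and 4 of 4 in citrus.

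Lyz2 (probe set TC1000002929.mm.2) encodes lysozyme M, an antibacterial enzyme of macrophages and granulocytes. It was at 15.86, 15.13, 15.37 and 15.86 on the vehicle GFP-negative arrays and at 15.27, 15.65, 16.37 and 16.20 on the citrus ones. The GFP-positive arrays gave 7.39, 7.09, 10.45 and 8.16 in vehicle and 7.83, 6.50, 9.58 and 7.44 in citrus. Here too replicate 3 stood highest, and those were the only GFP-positive arrays on which any of the 10 genes was above background. For Lyz2 this gave a difference of −7.29 ± 0.63 in vehicle (adjusted p = 1.5e-07) and −8.03 ± 0.63 in citrus (adjusted p = 3.8e-08). Without both GFP-positive replicate 3 arrays the vehicle difference was −8.01. No fold bound is given, since 1 of 4 GFP-positive arrays in each stimulus did measure Lyz2.

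Cx3cr1 (probe set TC0900003248.mm.2) encodes the receptor for fractalkine, the CX3CL1 chemokine, on nonclassical monocytes, microglia and many tissue macrophages. None of its 16 values exceeded background. In vehicle the GFP-negative arrays had 6.25, 6.49, 5.60 and 6.53 and the GFP-positive arrays 4.03, 3.67, 4.55 and 4.11. In citrus the GFP-negative arrays had 5.62, 5.30, 6.54 and 6.70 and the GFP-positive arrays 4.59, 4.17, 5.01 and 4.11. Although dim, the gates did not overlap, and the measured difference was −2.13 ± 0.31 in vehicle (adjusted p = 6.8e-05) and −1.57 ± 0.31 in citrus (adjusted p = 0.0012). No fold is given for a probe set below background on both sides.

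C1qa (probe set TC0400003794.mm.2) and C1qb (probe set TC0400003792.mm.2) encode chains of C1q, the recognition protein of the classical complement pathway, which macrophages and microglia produce. C1qa had 7.85, 8.32, 8.05 and 8.70 in vehicle GFP-negative cells and 6.75, 6.35, 7.95 and 6.19 in vehicle GFP-positive cells. In citrus it had 8.01, 8.66, 9.34 and 10.33 in GFP-negative and 5.66, 6.07, 7.64 and 6.63 in GFP-positive cells. The vehicle gates overlapped through GFP-positive replicate 3, and the vehicle C1qa difference, −1.42 ± 0.48, was the least secure of the 10 (adjusted p = 0.047). That call was lost without vehicle replicate 1 (adjusted p = 0.085), 2 (0.20) or 4 (0.26) and without citrus replicate 2 (0.059), while without both GFP-positive replicate 3 arrays the difference was −1.80 (adjusted p = 0.0061). In citrus the C1qa difference was −2.59 ± 0.48 (adjusted p = 0.00065), or at least 1.09-fold, with 2 of 4 GFP-negative arrays above background.

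C1qb measured 6.25, 7.21, 7.70 and 7.68 in vehicle GFP-negative cells, 4.10, 4.31, 6.55 and 4.66 in vehicle GFP-positive cells, 7.63, 7.56, 8.22 and 9.36 in citrus GFP-negative cells and 5.23, 3.52, 6.32 and 4.56 in citrus GFP-positive cells. Again GFP-positive replicate 3 was the highest of its group in both stimuli and overlapped the GFP-negative arrays in vehicle. The C1qb difference was −2.30 ± 0.59 in vehicle (adjusted p = 0.0097) and −3.29 ± 0.59 in citrus (adjusted p = 0.00045). The vehicle call was lost without vehicle replicate 2 (adjusted p = 0.069) or 4 (0.075). C1qc, the third chain, whose gene lies between C1qa and C1qb, differed by −1.67 ± 0.47 in vehicle (adjusted p = 0.019) and by −2.18 ± 0.47 in citrus (adjusted p = 0.0026).

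Il1b (probe set TC0200004602.mm.2) encodes interleukin 1 beta, an inflammatory cytokine that caspase 1 activates. GFP-negative arrays had 8.28, 9.42, 8.08 and 10.76 in vehicle and 8.59, 9.97, 8.99 and 10.71 in citrus, and were above background in 2 and 3 of 4 cases. GFP-positive arrays had 5.55, 5.53, 4.11 and 5.58 in vehicle and 4.02, 4.42, 4.42 and 4.24 in citrus. The GFP-negative values spread over more than 2 log2 units within each stimulus, the widest spread of the 10 genes in vehicle, and the gates did not overlap. The gate difference was −3.94 ± 0.52 in vehicle (adjusted p = 2.4e-05) and −5.29 ± 0.52 in citrus (adjusted p = 6.4e-07), where the bound was at least 1.52-fold lower.

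**Figure D2:**
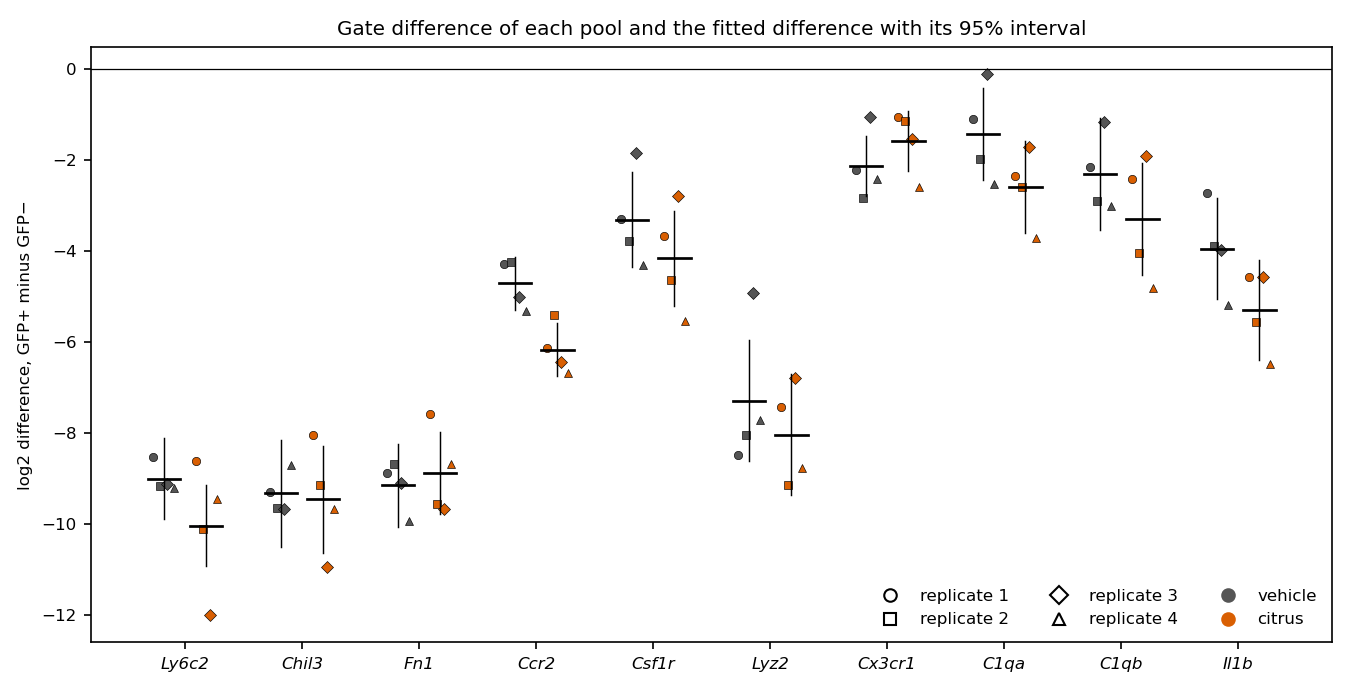
Log2 difference between the GFP-positive and the GFP-negative array of each pool, for the 10 genes, with the fitted difference (bar) and its 95% interval (line). All points lie below 0, from −0.10 for C1qa in vehicle pool 3 to −12.01 for Ly6c2 in citrus pool 3.

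Members of gene families with near copies were set beside those copies. Ly6c1, the coding neighbour of Ly6c2 and a close relative, differed by −9.08 ± 0.42 in vehicle (adjusted p = 1.1e-10). Chil4, next to Chil3, differed by −7.04 ± 0.46 (adjusted p = 5.3e-09). Lyz1, the Paneth cell lysozyme gene next to Lyz2, differed by −2.37 ± 0.31 (adjusted p = 2.1e-05). Signal from a gene and from its near copy on the same probes cannot be told apart in these values, so the assignment to Ly6c2, Chil3 and Lyz2 is uncertain to that extent.

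Genes of the same pathways were read from a list of 26, of which 25 had a probe set. In vehicle 13 were lower in GFP-positive cells, 0 were higher and 12 did not pass. In citrus 15 were lower, 1 was higher and 9 did not pass. The median difference was −0.69 in vehicle and −1.06 in citrus. Only 4 of the 25 genes were above background on any GFP-negative array in vehicle, and 4 in citrus. Most differences of this list thus rest on values under the background level.

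Among ligands of the member receptors, Csf1, which encodes the growth factor read by CSF1R, was lower, at −0.84 ± 0.20 in vehicle (adjusted p = 0.0059). Il34, the other CSF1R ligand, differed by 0.21 ± 0.21 (adjusted p = 0.54). The CCR2 ligand genes Ccl2, Ccl7 and Ccl12 differed by −0.39, 0.09 and −0.56 and did not pass in vehicle, and Ccl12 passed in citrus at −1.23 ± 0.40 (adjusted p = 0.039). Cx3cl1, which encodes the membrane-bound ligand of CX3CR1, was the 1 gene of this list that was higher in GFP-positive cells. Its gate difference was 0.39 ± 0.21 in vehicle (adjusted p = 0.22) and 0.80 ± 0.21 in citrus (adjusted p = 0.010). In citrus Cx3cl1 stood at 6.70, 6.66, 6.94 and 6.99 on GFP-positive and 6.16, 6.27, 5.90 and 5.74 on GFP-negative arrays, below background throughout. In citrus the receptor gene Cx3cr1 was thus lower and the ligand gene Cx3cl1 higher in GFP-positive cells.

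Of the receptor subunits and adhesion partners, Csf2rb, the shared chain of the GM-CSF receptor, was lower, at −1.52 ± 0.16 in vehicle (adjusted p = 1.6e-06). The fibronectin-binding integrin genes Itga4 and Itgb1 were lower, at −2.37 ± 0.28 (adjusted p = 6.15e-06) and −0.69 ± 0.22 (adjusted p = 0.035), while Itga5 differed by −0.14 ± 0.16 (adjusted p = 0.59). Itgam, whose product CD11b binds complement fragments on monocytes and neutrophils, showed the largest difference of the list, −6.90 ± 0.40 (adjusted p = 1.5e-09). The anaphylatoxin receptor genes C3ar1 and C5ar1 were lower, at −1.81 ± 0.39 (adjusted p = 0.0031) and −1.56 ± 0.18 (adjusted p = 4.9e-06). The classical complement genes downstream of C1q did not pass: C1ra differed by −0.15, C1s1 by −0.02, C2 by −0.15 and C4b by 0.42. Their vehicle GFP-negative means were 4.94, 3.73, 3.74 and 5.49, under the background level, where a fall may not show.

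Around Il1b, the decoy receptor gene Il1r2 was lower, at −3.84 ± 0.44 in vehicle (adjusted p = 4.6e-06) and the antagonist gene Il1rn by −1.30 ± 0.21 (adjusted p = 0.00019). The inflammasome genes Casp1 and Nlrp3 were lower, at −2.22 ± 0.33 (adjusted p = 7.2e-05) and −1.24 ± 0.21 (adjusted p = 0.00030). Pycard, the adaptor between them, was lower, at −0.83 ± 0.23 (adjusted p = 0.019), and the signalling receptor gene Il1r1 by −0.69 ± 0.24 (adjusted p = 0.047). Il1a, the other main agonist, differed by −0.52 ± 0.37 (adjusted p = 0.37). Il1rap, the receptor accessory chain, differed by −0.74 ± 0.31 in vehicle (adjusted p = 0.11) and passed in citrus at −1.13 ± 0.31 (adjusted p = 0.015).

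Lists of marker genes placed these differences among those of other cell types. Of classical monocyte markers 11 of 11 measured were lower in vehicle, with a median of −4.19, and 6 of 11 were above background on any vehicle GFP-negative array. Those 6 were Ly6c1, Itgam, Ifitm6, Cd177, Hp and Plac8. F13a1, Ms4a6c, S100a4, Vcan and Lgals3 were not, with vehicle GFP-negative means of 7.80, 8.53, 7.15, 6.83 and 8.07. Besides Ly6c1 and Itgam the largest differences were those of Hp, which encodes haptoglobin, at −8.82 ± 0.47 (adjusted p = 4.4e-10), and Ifitm6 at −6.98 ± 0.51 (adjusted p = 1.8e-08). The part of neutrophils in the values of this list was not tested. Of nonclassical monocyte markers 6 of 8 were lower, with a median of −1.08, led by Spn (CD43) at −1.70 ± 0.21 (adjusted p = 8.9e-06). Of these 8 genes 0 were above background on any vehicle array of either gate. Of tissue macrophage markers 4 of 17 were lower in vehicle and 6 of 17 in citrus, with medians of −0.25 and −0.47. The 4 in vehicle were Mrc1 (the mannose receptor) at −1.74, C1qc at −1.67, Adgre1 (F4/80) at −1.44 and Trem2 at −1.07. In GFP-negative cells the array mean of the list stayed between 4.91 and 5.86. There 2 of 17 genes were above background on any array in citrus and 1 in vehicle. The vehicle gene was Cbr2, which is also in the sustentacular list and differed by −0.10 ± 1.04 (adjusted p = 0.96). Mrc1, C1qc, Adgre1 and Trem2 were thus not above background on any vehicle GFP-negative array. Microglial markers were lower for 3 of 5, with P2ry12 at −1.71 ± 0.48 (adjusted p = 0.019), while 0 of 5 were above background on any GFP-negative array.

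Neutrophil markers, by comparison, were lower for 13 of 13 measured, with a median of −8.61 in vehicle and −8.74 in citrus. Lcn2, the iron-binding lipocalin of neutrophil granules, differed by −10.30 ± 0.54 (adjusted p = 4.3e-10), and Retnlg by −10.13 ± 0.48 (adjusted p = 1.2e-10). The list averaged 13.47 to 14.66 on vehicle GFP-negative arrays and 12.71 to 14.61 on citrus ones, with 13 of 13 genes above background in each group. On GFP-positive arrays it averaged 5.26 to 6.39 and 5.18 to 6.01, with 2 and 0 genes above background. How much of the signal of Ly6c2, Chil3, Fn1, Lyz2 and Il1b came from neutrophils was not tested.

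Markers common to all leukocytes were lower for 10 of 10 (median −5.92), B cell markers for 6 of 8 (Cd79a at −4.81 ± 0.67, adjusted p = 4.4e-05) and T and NK cell markers for 4 of 10 (Cd3e at −1.74 ± 0.31, adjusted p = 0.00057). Dendritic cell markers were lower for 5 of 9, with the MHC class II gene H2-Aa at −5.52 ± 0.40 (adjusted p = 1.6e-08), and mast cell and eosinophil markers for 5 of 8. Above background on any vehicle GFP-negative array were 10 of 10 common leukocyte genes, 2 of 8 B cell genes and 0 of 10 T and NK genes. For dendritic cell markers this count was 2 of 9, and for mast cell and eosinophil markers 1 of 8. The 2 B cell genes were Cd79a and Ebf1. Ebf1 was bright in both gates, at 16.82 in GFP-negative and 16.85 in GFP-positive vehicle cells, and was not called. Among transcription factors of the lineage 4 of 7 were lower. Spi1, which encodes PU.1, stood at 15.42, 15.46, 15.38 and 16.02 on vehicle GFP-negative arrays and at 7.24, 7.23, 8.82 and 7.79 on GFP-positive ones, a difference of −7.80 ± 0.40 (adjusted p = 3.0e-10). Klf4, Cebpa and Irf8 were lower, at −0.94, −0.85 and −0.71, on values under the background level. Spi1 alone made up the 1 of 7 transcription factors above background on any vehicle GFP-negative array. The called genes of every immune list were on the same side as the members in vehicle. So were 6 of 9 immature OSN markers (median −1.67) and 3 of 9 sustentacular markers (median −1.72). Of mature OSN markers 3 of 15 were higher and 0 were lower (median 0.27).

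**Figure D3:**
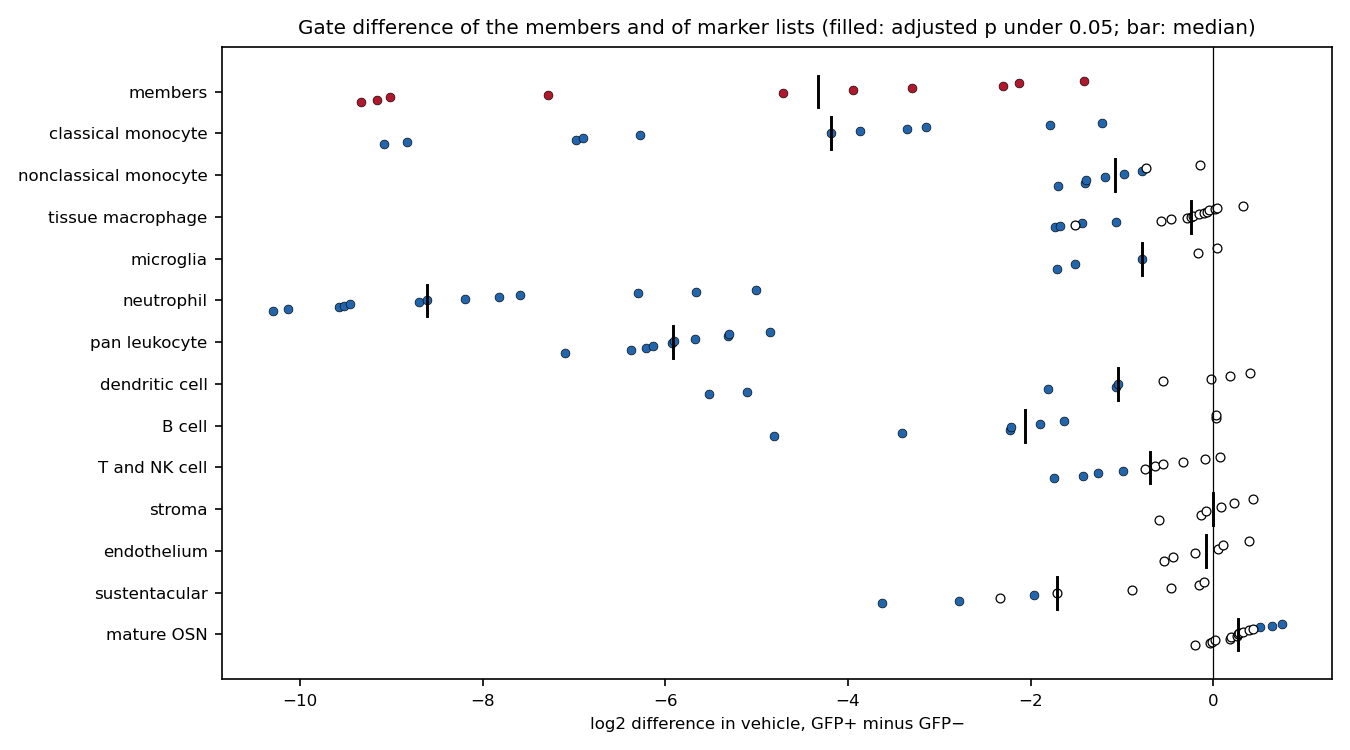
Gate difference in vehicle (log2, GFP-positive minus GFP-negative) for each gene of the member list and of 13 marker lists, with filled points past the threshold of 0.05 and a bar at each median. The members spread from −9.33 to −1.42 with a median of −4.32, beside medians of −8.61 for the neutrophil list and −0.25 for the tissue macrophage list.

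On GFP-positive arrays the members did not all deviate from their group means in the same direction. Replicate 3 was the highest of its group in both stimuli for Csf1r, Lyz2, Cx3cr1, C1qa and C1qb, which is 5 of 10 members, against 6.61% of all tested probe sets. For Csf1r, Lyz2, C1qa and C1qb together, the mean deviation of replicate 3 from its group mean was 1.55 in vehicle and 1.45 in citrus. For Ly6c2, Chil3 and Fn1 it was −0.19 and −0.90. The values of these 3 genes are below background on all GFP-positive arrays, and so are those of Csf1r, Cx3cr1, C1qa and C1qb. Only Lyz2 was above background, on both replicate 3 arrays. The sets were put together after their values were seen. In citrus Ly6c2, Chil3 and Fn1 were lowest on replicate 3, but in vehicle on replicate 2, at 4.77, 5.38 and 2.88. Neutrophil markers were lowest on replicate 3 in both stimuli, with a list mean of 5.26 in vehicle (other arrays 5.37 to 6.39) and 5.18 in citrus (5.35 to 6.01). The classical monocyte list did not show one direction, with 4.82 on replicate 3 in vehicle (others 4.95 to 5.34) and 4.97 in citrus (others 4.888 to 4.998). The part of neutrophils in the low values was not tested. The labels do not say that the number 3 marks anything shared between vehicle and citrus. Over all tested probe sets, the deviations from the group mean of the vehicle and citrus GFP-positive replicate 3 arrays correlated at 0.33. For the vehicle array this was the highest value with any citrus GFP-positive array, and its cause was not tested.

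The same 2 arrays were the highest for 7 of 17 tissue macrophage markers (C1qc, Adgre1, Mrc1, Mertk, Ms4a7, Pf4 and Cbr2) and for 2 of 7 transcription factors (Spi1 and Irf8). This held for 0 of 13 neutrophil markers and for 1 of 11 classical monocyte markers (Itgam). C1qc on GFP-positive arrays was at 4.73, 4.52, 6.41 and 5.12 in vehicle and at 4.53, 5.07, 6.24 and 5.28 in citrus. Other cell types had markers highest on both arrays too: 3 of 9 sustentacular, 2 of 6 Bowman gland (Bpifb9b and Sec14l3) and 3 of 10 pan-leukocyte markers (Laptm5, Fcer1g and Cd53). The Bowman gland list mean on replicate 3 was 7.59 in vehicle (others 5.90 to 7.29) and 7.74 in citrus (others 6.81 to 7.23). The pan-leukocyte mean was 5.49 (others 4.74 to 5.18) and 5.32 (others 4.90 to 5.21), with 0 of 10 genes above background. The sustentacular list mean on GFP-positive replicate 3 was 8.09 in vehicle, where the other arrays had 6.48 to 7.77, and 8.15 in citrus, where they had 6.91 to 7.71. Cbr2 is in both the sustentacular and the tissue macrophage list. The part of sustentacular, gland or other cells in the replicate 3 values was not tested. Without both GFP-positive replicate 3 arrays all 10 members were still called lower in both stimuli.

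**Figure D4:**
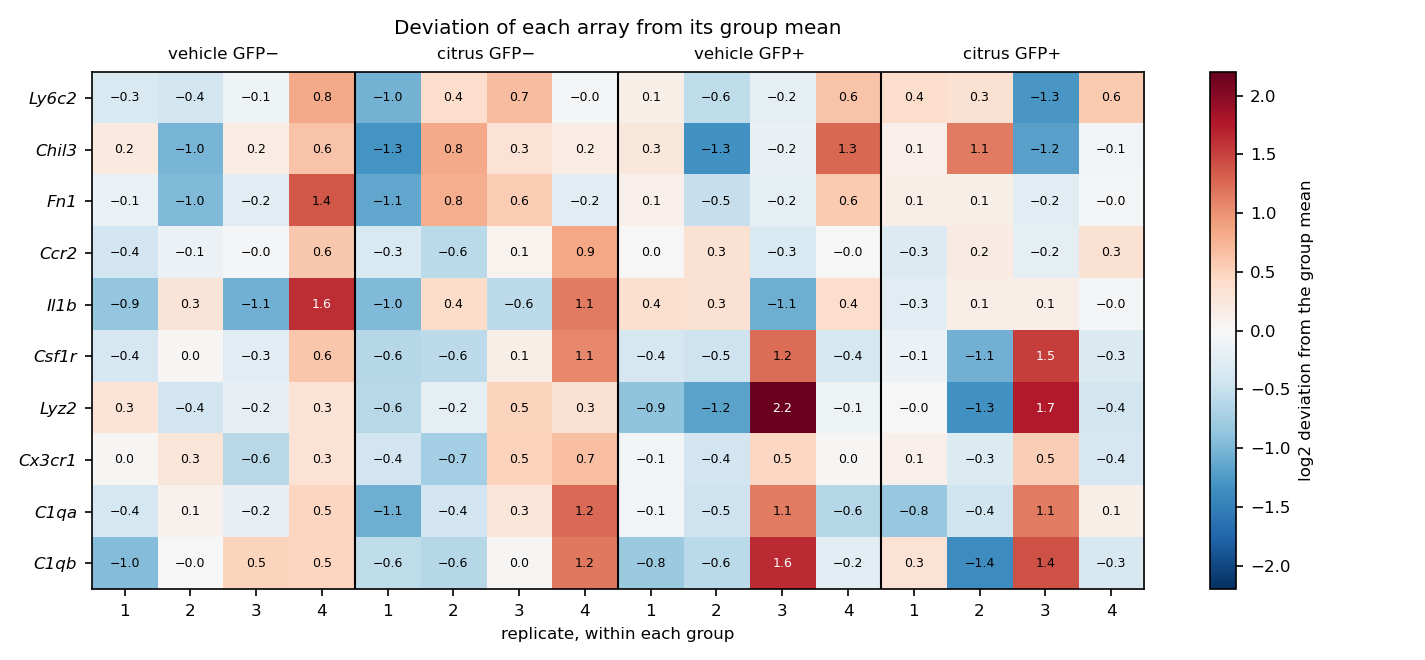
Deviation of each array from its group mean (log2) for the 10 genes, with arrays in columns and replicates 1 to 4 inside each group. GFP-positive replicate 3 is raised for Csf1r, Lyz2, Cx3cr1, C1qa and C1qb in both stimuli, up to 2.18 for Lyz2 in vehicle, and below the group mean for Ly6c2, Chil3 and Fn1.

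Among GFP-negative arrays, vehicle replicate 4 was the highest for 8 of 10 members, all but Lyz2 and C1qb (24.9% of probe sets). In citrus replicate 4 was highest for 6 members, Ccr2, Csf1r, Cx3cr1, C1qa, C1qb and Il1b (21.3%), and replicate 1 was lowest for 7 (25.9%). Ly6c2 and Lyz2 peaked in citrus replicate 3, and Chil3 and Fn1 in replicate 2. The neutrophil list averaged 14.09, 13.47, 13.53 and 14.66 on the vehicle GFP-negative arrays and 12.71, 14.25, 14.61 and 14.47 on the citrus ones. It was highest on vehicle replicate 4 and lowest on citrus replicate 1, but peaked in citrus replicate 3. The pan-leukocyte list had the same vehicle high (11.76) and citrus low (10.09) and peaked in citrus replicate 4 (11.83). So did the B cell list (8.42, 6.82 and 8.96), whose level is raised by Ebf1, a gene bright in both gates. The dendritic cell list did not, with vehicle replicate 3 highest (6.15) and citrus replicate 2 lowest (5.86). The part of these cell types in the members' values was not tested.

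For each member the genes outside the 10 with the most similar profile were found by the root mean square difference of centred log2 values over the 16 arrays, which share the large step between gates. Ly6c2 was nearest to Ly6c1 (0.41) and to Ngp (0.46), a neutrophil granule gene. Chil3 was nearest to Hp (0.45) and Mmp8 (0.49), and Fn1 to Mmp8 (0.42) and Hp (0.44), where Mmp8 encodes neutrophil collagenase. Each of these 3 members thus had a marker of the neutrophil list among their nearest 2 genes. Ccr2 was nearest to Alox5ap (0.48), a gene of leukotriene synthesis, and to Anxa4 (0.49). Csf1r was nearest to Trf (0.26), which encodes transferrin, and to Selenop (0.39). Trf on GFP-positive arrays was at 5.07, 5.02, 7.15 and 5.57 in vehicle and at 5.25, 4.91, 7.10 and 5.44 in citrus, with the same high replicate 3 as Csf1r. C1qa was nearest to C1qc (0.32) and Ptafr (0.47), the receptor gene for platelet-activating factor, and C1qb to Ptafr (0.52) and Ctsz (0.56), a lysosomal cathepsin gene. Lyz2 was nearest to Olfr1406 (0.60) and Spi1 (0.62), Cx3cr1 to Chdh (0.34) and Anxa3 (0.35), and Il1b to Btg2 (0.50) and 9930111J21Rik1 (0.53).

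Citrus exposure was then compared with vehicle within each gate. Of the 10 members 0 were called in GFP-positive cells, 0 in GFP-negative cells and 0 for the effect of citrus on the gate difference by limma with Benjamini-Hochberg adjustment. Over all tested probe sets 0.0204% were called in GFP-positive cells (all higher; 0% lower), 0.0153% in GFP-negative cells (0.0102% higher and 0.00511% lower) and 0% for the effect on the gate difference. At an unadjusted p under 0.05 the member counts were 1 (Ccr2), 0 and 1 (Ccr2), against 4.06%, 5.88% and 3.69% of all probe sets.

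In GFP-negative cells, where the members were brightest, the estimates were above 0 for 8 of 10. The largest were those of the complement genes, C1qb at 0.99 (95% interval −0.25 to 2.22) and C1qa at 0.85 (−0.16 to 1.87), both with an adjusted p of 0.87. Csf1r differed by 0.51 (−0.53 to 1.56), Il1b by 0.43 (−0.68 to 1.54), Ccr2 by 0.43 (−0.16 to 1.01) and Ly6c2 by 0.37 (−0.52 to 1.27). Lyz2 differed by 0.32 (−1.01 to 1.64), Chil3 by 0.09 (−1.08 to 1.27), Fn1 by −0.14 (−1.05 to 0.77) and Cx3cr1 by −0.18 (−0.83 to 0.48). Every interval included 0, and the widest, that of Lyz2, left room for a change of more than 1 log2 unit in either direction.

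In GFP-positive cells Ccr2 had the largest estimate, −1.03 ± 0.28, with citrus arrays at 3.03 to 3.66 and vehicle arrays at 4.03 to 4.70. Its unadjusted p was 0.0017 and its adjusted p 0.999, and every one of these values was below background. Il1b differed by −0.92 (−2.03 to 0.18), Ly6c2 by −0.66 (−1.55 to 0.23) and Lyz2 by −0.43 (−1.76 to 0.89). The estimates of Csf1r, C1qa, Chil3, C1qb, Fn1 and Cx3cr1 were −0.34, −0.31, −0.03, 0.00, 0.13 and 0.38. For the effect on the gate difference, the estimates were below 0 for 8 of 10 members, and the adjusted p was 0.999 for each of the 10. Ccr2 was at −1.45 ± 0.39, Il1b at −1.35 ± 0.74, C1qa at −1.17 ± 0.68, Ly6c2 at −1.03 ± 0.60 and C1qb at −0.98 ± 0.83. Csf1r was at −0.85 ± 0.70, Lyz2 at −0.75 ± 0.89, Chil3 at −0.13 ± 0.79, Fn1 at 0.27 ± 0.61 and Cx3cr1 at 0.56 ± 0.44.

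**Figure D5:**
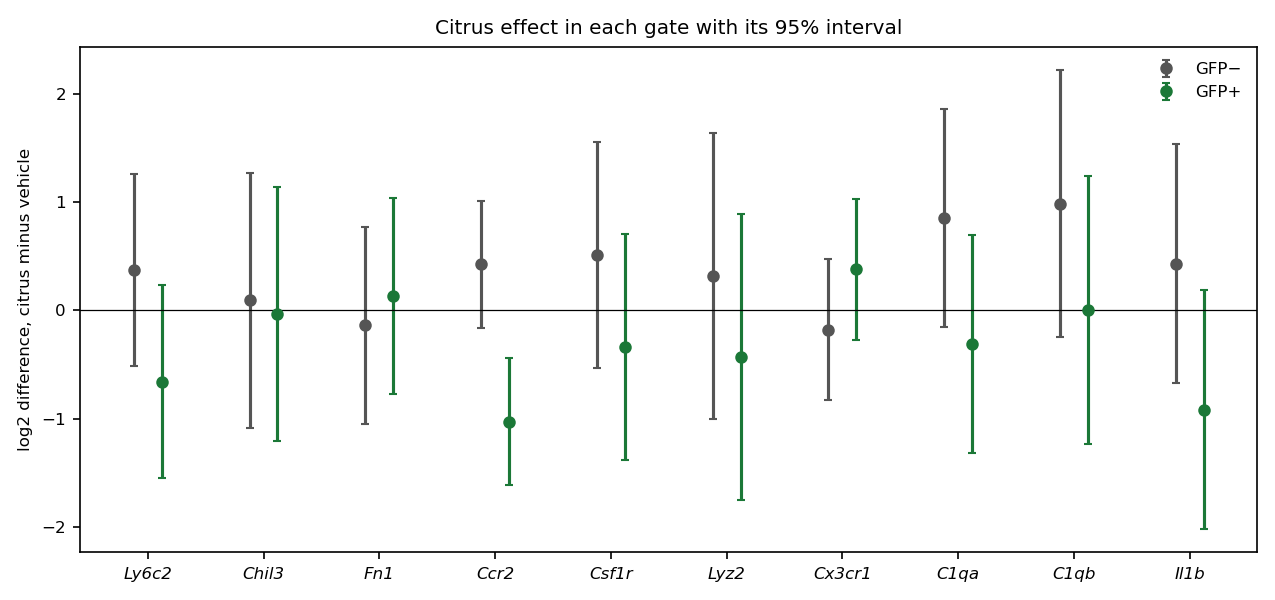
Log2 difference between citrus and vehicle for the 10 genes in GFP-negative and in GFP-positive cells, with 95% intervals. All intervals include 0 except that of Ccr2 in GFP-positive cells (−1.61 to −0.44), which did not pass after adjustment.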

How the data were processed

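The authors deposited a table of log2 expression values per probe set (28846 in all), computed from the arrays of 16 sorted samples with Affymetrix Expression Console, as the submitters' processing notes state. One sample label names SST-RMA, a robust multi-array average after a signal space transformation, which can widen differences, so log2 differences here are on that scale and not measured ratios of mRNA. Tool version and genome build: not given in the sources used here. No further normalization was applied. Symbols came from the platform annotation: 19572 probe sets had exactly 1 and entered the tests, 0 had more than 1, 2634 had none here and 6640 were control probes. Matching by Entrez ID to a current gene table found 19572 and altered 0 symbols. Where several probe sets shared a symbol (55 symbols), the brightest on average stood for it. Arrays have no read depth, and 4 arrays per group limit the precision.

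For the tests, limma 3.58.1 (R 4.3.3) fitted 4 group means and 1 spread per probe set to 16 arrays, and two-sided p-values had Benjamini-Hochberg adjustment across 19572 probe sets, with 0.05 as the threshold. A ± beside a difference is its standard error. The fit was tested on simulated data. Background was set per array at the 95th percentile of 5222 negative-control probes. P-values reflect the spread between pools of 3 mice. Both gates of one stimulus and number were treated as 1 pool, an inference from 24 mice and 8 pools that no label spells out. Residuals of such pairs correlated at 0.075 to 0.275. The fit ignores this pairing, and a pool block was tried as an alternative, beside other centring, normalization, priors, probe set filters, array weights, groups fitted and left-out pools. A batch effect was not tested, because the labels carry a single code.

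The members, marker lists and motifs were chosen with earlier results of these data known. Named were all members, their family copies, all genes of the pathway list, up to 4 genes with the largest called vehicle difference per marker list, and the 2 nearest profiles per member. S100a5, Dcn, Pecam1 and the genes named for the replicate 3 pattern were added after their values were seen, as was the fit without both GFP-positive replicate 3 arrays. List genes for which no probe set carried the symbol were not analysed here. Promoter windows are from RefSeq (GRCm38.p6). Plots used matplotlib 3.10.9 and Python 3.11.15.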

Additional observations from a re-analysis of the deposited data

Results flagged for a closer look

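In 60 sets of 4 values (each member in each group, and its gate difference in the pools of each stimulus), 4 held a value whose gap to the next was large for the set, where chance gives about 1 set in 20. Ly6c2 was low on citrus GFP-positive replicate 3, at 3.38, with the next array at 5.0. Csf1r was high on vehicle GFP-positive replicate 3, at 7.27, with the next array at 5.68. Il1b was low on vehicle GFP-positive replicate 3, at 4.11, with the next array at 5.53. The gate difference of Ly6c2 in vehicle pool 1 was −8.54, the smallest of its set, with the next pool at −9.12. The first 3 of these values are below background, and their cause was not tested.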

How the results depend on the processing

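In 19 alternative fits, 354 of 354 gate differences of the members stayed below 0 and 344 of them passed the threshold, while 0 member values passed in any citrus comparison. The 10 lost calls were all in vehicle. For C1qa the adjusted p was 0.053 with arrays centred on the median, 0.057 after a second quantile normalization, 0.064 with a trended robust prior and 0.066 with array weights, and reached 0.26 when a pool was left out. For C1qb it was at most 0.075, without vehicle replicate 4. Keeping only probe sets above background on at least 4 arrays removed Cx3cr1, C1qa and C1qb, and the other 7 stayed called. Those 7 met the filter through their GFP-negative arrays, with only Lyz2 above background on any GFP-positive ones (2 of 8). The filter thus favours genes that are high in that gate, and this fit is no check of their calls. With the pool as a replicate block, all 10 members were called in both stimuli (highest adjusted p 0.020, C1qa in vehicle). With the replicate number as a block across stimuli, where own numbers correlated best for 6 of 8 arrays (−0.013 to 0.354), 0 members were called and Ccr2 in GFP-positive cells had an adjusted p of 0.47.

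The number of all probe sets called for the gate in vehicle, 3723, was 8635 with median centring, 2012 with the background filter, 2466 without vehicle replicate 2 and 2369 without vehicle replicate 4. In citrus 3569 became 10839 and 1564 under the first 2 of these. For citrus in GFP-positive cells 4 became 2 with the filter, and for the effect on the gate difference 0 became 1 under OSN centring, a trended robust prior, the pool block or without citrus replicate 1. In citrus the split of higher and lower calls was 1457 and 2112 as deposited, 9128 and 1711 median-centred, 531 and 3538 OSN-centred, and 2340 and 1984 quantile-normalized.

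Signs turned for some citrus estimates, none of which had passed the threshold, from near 0 up to −0.75 for Lyz2. In GFP-positive cells C1qb became −0.0062 with median centring, −0.074 with OSN centring and −0.057 with array weights. Without both GFP-positive replicate 3 arrays, a fit chosen after seeing the data, Chil3 became 0.31 in GFP-positive cells and 0.21 for the effect on the gate difference. Leaving out 1 pool gave these ranges in GFP-positive cells: −0.48 to 0.39 for Chil3, −0.037 to 0.33 for Fn1, −0.84 to 0.068 for Csf1r, −1.01 to 0.29 for Lyz2, −0.69 to 0.069 for C1qa and −0.47 to 0.55 for C1qb. In GFP-negative cells it gave −0.25 to 0.53 for Chil3, −0.46 to 0.32 for Fn1 and −0.40 to 0.071 for Cx3cr1. For the effect on the gate difference it gave −0.60 to 0.37 for Chil3, −0.16 to 0.54 for Fn1 and −1.16 to 0.039 for Lyz2. The cause of these turns was not tested.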
